A study of Mus musculus with 40 samples.

Results

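The comparison is of RNA bound to Argonaute-2 (Ago2) in non-transgenic mouse hearts after 2 weeks of pressure overload against the same material from control hearts. Its members are the libraries labelled as Ago2 immunoprecipitates of non-transgenic animals, 3 from sham and 7 from overloaded hearts, which is 10 of the 40 libraries of the study. Overload was made by transverse aortic constriction (TAC), a surgical band around the aortic arch that raises the pressure against which the left ventricle ejects. The mice were of the FVB/N strain, carried no transgene, and were 12 weeks old and male by their labels, although the text for the whole study gives a range of ages. The control hearts are labelled sham, while the authors' tables mark them as hearts without surgery, so what was done to them is uncertain. Each sample was a coronal piece of frozen heart that left out the right ventricle, with all its cell types. The other libraries are polyadenylated RNA (mRNA) of the same hearts, and both kinds of library from hearts of mice transgenic for miR-378a (TG), used below only for comparison with the non-transgenic (ntg) Ago2-bound RNA. The promoter of that transgene is not given in the sources used here.

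Argonaute-2 is the protein at the core of the RNA-induced silencing complex (RISC). It holds a microRNA, which pairs with a messenger RNA and leads to its repression or decay, so an Ago2 precipitate holds messenger RNAs that microRNAs target. It also holds abundant messages that come down with the complex, and a rise or fall in the precipitate can follow the amount of a message in the tissue or its binding. Pressure overload is known to make heart muscle cells grow, to bring back muscle genes of the fetal heart, to lower genes of calcium handling and fatty acid oxidation, and to make fibroblasts lay down matrix.

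After removal of the ribosomal RNA gene Rn45s, which took between 51.5% and 62.3% of the gene counts, the sham libraries held 6.98 to 9.63 M gene counts and the TAC libraries 3.49 to 8.39 M. Of the 23420 genes counted, 22332 lie on autosomes and are not Rn45s, and 12923 of those had enough counts to be tested. Levels below are in CPM unless stated, the counts of a gene scaled to a common library size. The size of a library was its autosomal counts multiplied by its TMM factor. That factor had a mean of 0.888 in the sham and 1.005 in the TAC libraries. Marker sums are in CPM of autosomal counts without Rn45s and without the TMM factor, so they are not on the scale of the gene levels. Xist and Y-linked levels are in CPM of all counts without Rn45s. The markers of heart muscle cells were at high levels in every library, with the contractile protein gene Myh6 at 34826 ± 1192 CPM in sham (mean ± SD, n = 3) and at 26777 ± 3597 CPM in TAC (n = 7). The labelled sex did not match the sham libraries. Summed over the Y-linked genes Ddx3y, Kdm5d, Uty and Eif2s3y, levels were 0.807 to 3.29 CPM in sham and 114 to 141 CPM in TAC libraries. In mRNA of the same hearts, the female-specific transcript Xist stood at 125 to 140 CPM in sham and at 1.16 to 3.68 CPM in TAC. Surgery and sex-chromosome RNA therefore cannot be told apart in any result, and genes on the sex chromosomes were left out of the tests. The dependence of levels on exon length also separated the groups. The slope of a library's levels on exon length, in log2 units per doubling of length, was between -0.0331 and 0.000646 in sham and between 0.0151 and 0.138 in TAC libraries, without overlap. Counts of each list's calls with this slope as a covariate are given beside the main ones. The covariate also moves with surgery, so a call lost under it does not show that the change was smaller. The part of RNA length in the results was not tested beyond that.

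In TAC hearts 755 genes were higher in Ago2-bound RNA and 661 were lower, which is 5.84% and 5.11% of the 12923 tested, or 11% in either direction (quasi-likelihood test of edgeR, adjusted p below 0.05 after the Benjamini-Hochberg method). For 1428 genes, 11.1%, the TAC libraries did not overlap the sham libraries. Most changes were modest. The called genes had a median absolute log2 fold change of 0.592, and 207 of them changed by more than 1 log2 unit. The median of all tested genes was 0.01, and the biological coefficient of variation was 16.5%. The calls differed by length, with a median exon length of 4268 bases in the higher genes, 2517 bases in the lower genes and 2973 bases in all tested genes. In 4 equal bins of exon length, the shortest held 68 higher and 223 lower genes and the longest 352 higher and 140 lower. With the length slope as a covariate 227 genes were called, 111 higher and 116 lower, of which 220 were among the 1416 and 0 had changed sign. Leaving out sham 1 left 319 higher and 380 lower genes, sham 2 434 and 484, and sham 3 435 and 507. Heart samples differ in their cells, and for every gene named below fewer or more cells of a type and less or more RNA per cell cannot be told apart.

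**Figure D1:**
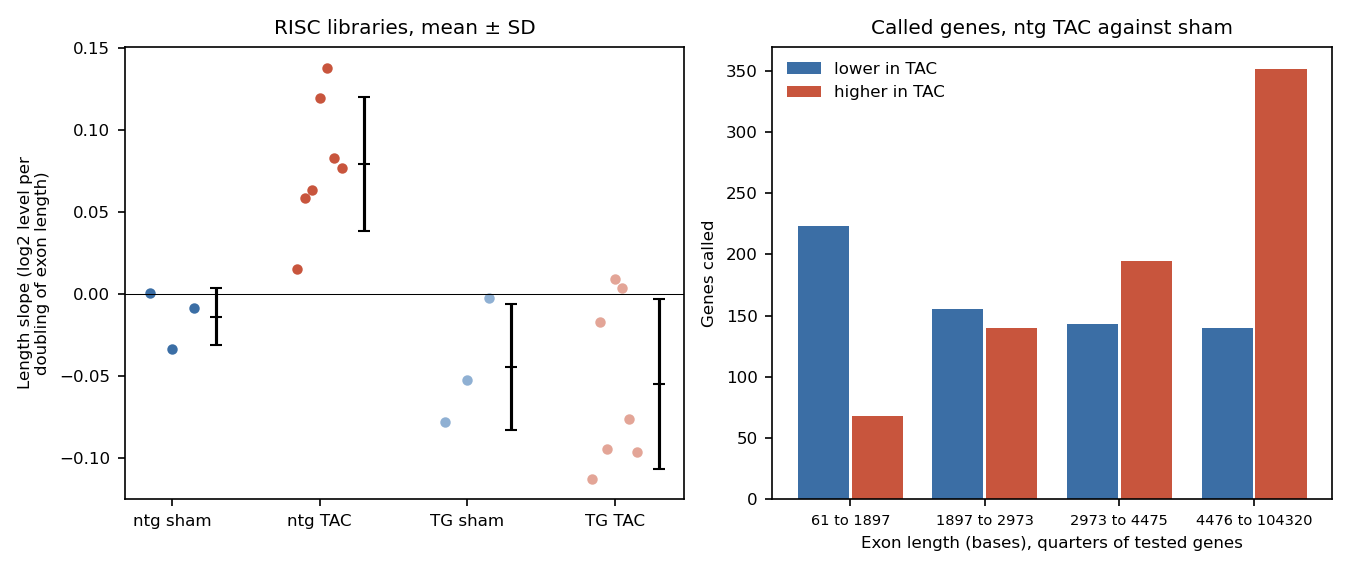
Left, slope of log2 level on log2 exon length for each RISC library (points) with the group mean ± SD (bars) in the 4 groups. Right, number of genes called lower and higher in non-transgenic TAC hearts in 4 equal bins of exon length in bases, where 223 genes of the shortest bin were lower and 352 of the longest were higher.

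The classical genes of the overloaded heart moved in part. Of 12 overload markers tested, 5 rose and 1 fell, with a median log2 fold change of 0.55, and 6 were not called. The length covariate left 3 higher and 0 lower, with a median of 0.41. Acta1 (chromosome 8, 123891758 to 123894775 on mm10, minus strand), the skeletal muscle actin that the fetal heart also makes, was at 217, 264 and 403 CPM in sham and at 860 to 1578 CPM in TAC, with a median of 1024 CPM. The groups did not overlap, and the log2 fold change was 1.98 (SE 0.38, edgeR adjusted p = 0.00302). The length covariate gave 1.39 at an adjusted p of 0.07. Ankrd1 (chromosome 19, 36111965 to 36119844, minus strand), a stretch-responsive protein of the titin complex and the nucleus, was at 1629, 1831 and 1971 CPM in sham and at 4297 to 5947 CPM in TAC, with a median of 4923 CPM. All 7 TAC libraries stood above all sham libraries by more than the whole range of the sham group, with a log2 fold change of 1.46 (SE 0.13, edgeR adjusted p = 8.9e-10). Myh7 (chromosome 14, 54970688 to 54994549, minus strand), the slow myosin heavy chain of the fetal ventricle, rose from 2124, 2133 and 2483 CPM to between 3927 and 5643 CPM, which came to 1.10 in log2 units (SE 0.15, edgeR adjusted p = 3.4e-05). Mybpc2, the fast skeletal myosin-binding protein C, rose from a mean of 31.8 to 80.8 CPM, and Thbs4, a matricellular thrombospondin, from 10.9 to 29.4 CPM. Tnfrsf12a, the receptor of the cytokine TWEAK, fell from 30.9 to 17.5 CPM.

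The natriuretic peptide genes, which many studies use as the first markers of cardiac stress, did not pass the test here. Nppa (chromosome 4, 148000746 to 148002067, plus strand), which encodes atrial natriuretic peptide, was at 1238, 696 and 397 CPM in sham and at 341 to 914 CPM in TAC, with a median of 715 CPM. The sham libraries alone spanned more than the TAC libraries, and the log2 fold change was -0.19 (SE 0.41, edgeR adjusted p = 0.834). Leaving out 1 library at a time gave values between -0.52 and 0.31. Nppb (chromosome 4, 147985789 to 147987205, plus strand), which encodes brain natriuretic peptide, was at 139, 196 and 120 CPM in sham and at 53.3 to 176 CPM in TAC, with overlapping groups and a log2 fold change of -0.25 (SE 0.25, edgeR adjusted p = 0.6). None of 8 genes typical of atrial muscle was called, with 2 of 8 above 0 and a median log2 fold change of -0.65. The part of atrial tissue in the sections was not tested beyond these genes. At an unadjusted p below 0.05 the whole comparison held 3224 genes.

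The promoters of Acta1, Ankrd1 and Nppb are shown because they hold MCAT elements, the sites of the TEAD factors that many promoters of heart muscle carry, while the 3 genes differed in response. They are windows of 250 bases before and 50 bases after the RefSeq start on GRCm38.p6, chr8:123894726-123895025 (minus strand), chr19:36119795-36120094 (minus strand) and chr4:147985650-147985949 (plus strand), printed 5′ to 3′ on the strand of the gene. Capitals mark CATTCC or its reverse complement GGAATG and, in Acta1, a CArG box, the site of serum response factor. The windows of Myh7, Nppa and Postn hold neither.
Acta1: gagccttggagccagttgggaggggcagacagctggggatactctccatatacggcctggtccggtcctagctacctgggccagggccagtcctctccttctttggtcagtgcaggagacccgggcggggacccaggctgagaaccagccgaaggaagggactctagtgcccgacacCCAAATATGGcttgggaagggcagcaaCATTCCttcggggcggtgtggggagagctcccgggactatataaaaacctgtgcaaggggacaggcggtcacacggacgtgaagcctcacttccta
Ankrd1: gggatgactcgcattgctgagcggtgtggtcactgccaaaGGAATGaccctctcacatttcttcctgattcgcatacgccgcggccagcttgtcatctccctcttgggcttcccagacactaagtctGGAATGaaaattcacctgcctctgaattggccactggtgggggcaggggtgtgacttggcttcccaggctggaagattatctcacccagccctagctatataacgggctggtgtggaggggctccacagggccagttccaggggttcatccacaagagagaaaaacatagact
Nppb: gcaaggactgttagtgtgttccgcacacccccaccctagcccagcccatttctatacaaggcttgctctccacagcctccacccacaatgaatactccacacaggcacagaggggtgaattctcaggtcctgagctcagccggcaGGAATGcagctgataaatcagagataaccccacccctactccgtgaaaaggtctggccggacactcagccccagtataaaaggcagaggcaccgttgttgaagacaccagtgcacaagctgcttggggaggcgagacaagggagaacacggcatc
Acta1 has 1 MCAT element next to its CArG box, Ankrd1 has 2 MCAT elements and Nppb has 1. Of 32851 promoter windows of this length from RefSeq, 4817 or 14.7% hold CATTCC on either strand, and 535, or 1.63%, hold a CArG box. These matches describe the letters only. Ankrd1 and Acta1 rose and Nppb was not called although all hold an MCAT element, and Myh7 rose with none in its window.

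**Figure D2:**
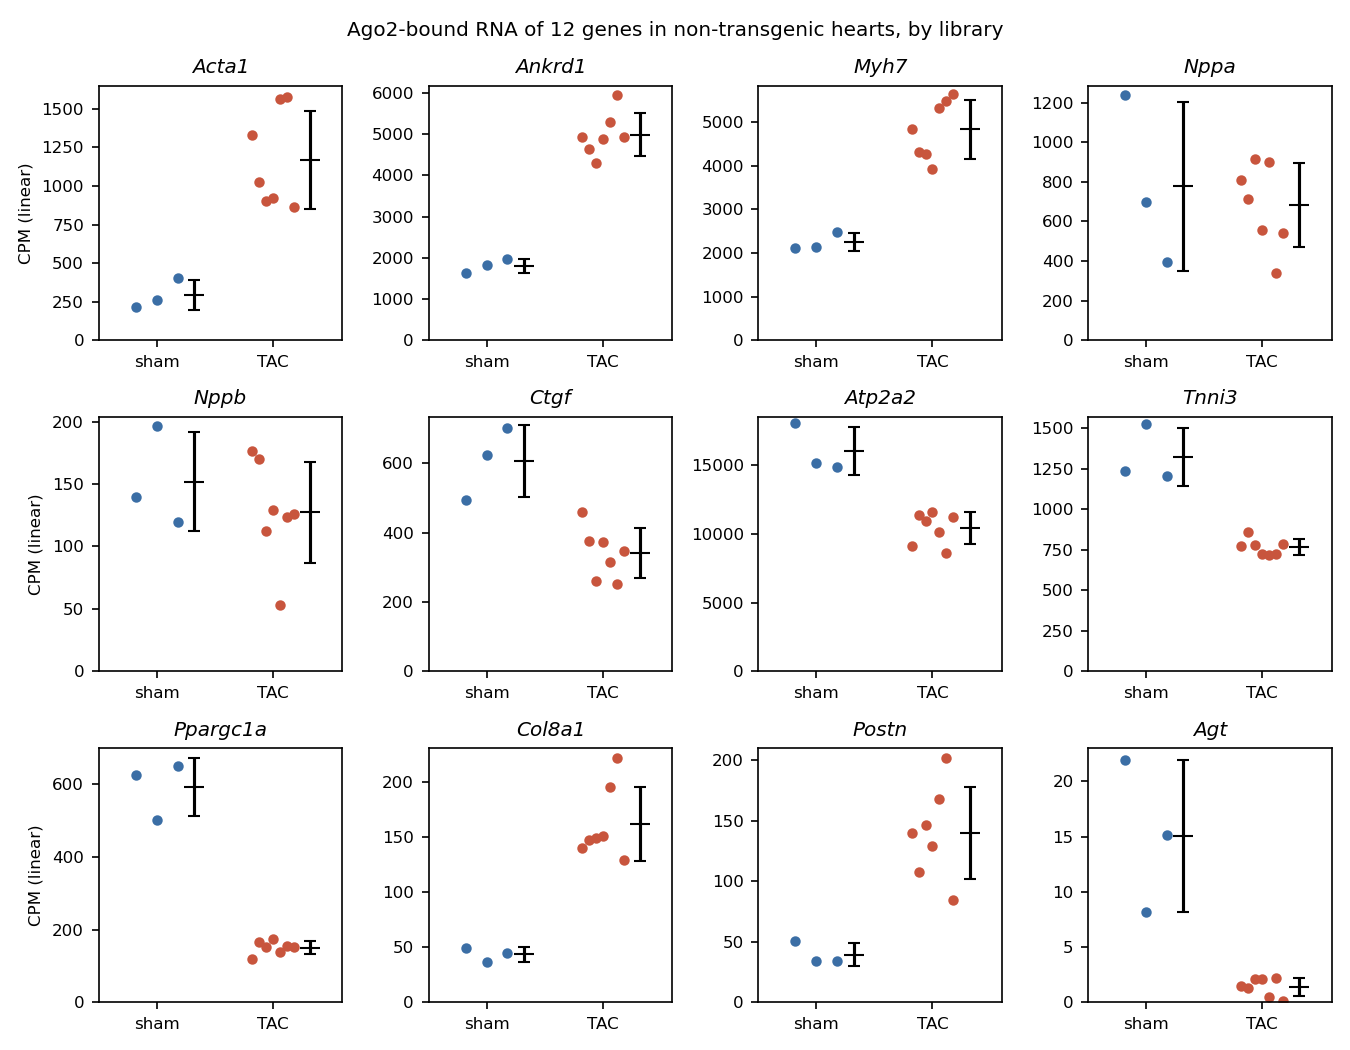
Levels of 12 genes in Ago2-bound RNA, in CPM on linear axes that start at 0, for the 3 sham and 7 TAC libraries of non-transgenic hearts, with each library as a point. The Acta1, Ankrd1 and Myh7 points of TAC lie above all sham points, those of Ppargc1a lie below, and those of Nppa and Nppb overlap.

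Many genes of the adult beat were lower. Of 31 genes of contraction, calcium handling and ion currents 11 fell and 0 rose, 27 had log2 fold changes below 0, and the median was -0.31. Atp2a2, the calcium pump SERCA2 that refills the sarcoplasmic reticulum, was at 18060, 15183 and 14878 CPM in sham and at 8649 to 11598 CPM in TAC, which came to -0.62 in log2 units (SE 0.11, edgeR adjusted p = 0.000161). It stayed called with the length covariate, at -0.61. Tnni3, the cardiac inhibitory troponin, fell from 1237, 1529 and 1203 CPM to between 718 and 858 CPM, and its TAC libraries lay closer together than those of sham. Myh6, the fast adult myosin, fell by 0.38 on the log2 scale (SE 0.11, edgeR adjusted p = 0.0201), while Myh7 rose. With the length covariate Myh6 was at -0.45 and an edgeR adjusted p of 0.0932, and its call was also lost without sham 1 and without sham 2. Myh7 kept its call under every alternative. Among genes of calcium release, the ryanodine receptor Ryr2 fell from a mean of 4787 to 3502 CPM, the calcium buffer Casq2 from 502 to 333 CPM, the histidine-rich calcium-binding protein Hrc from 1438 to 854 CPM and the junctional protein Jph2 from 522 to 358 CPM. The ventricular light chain Myl2 fell from 2258 to 1588 CPM, and Kcnj11, a subunit of the ATP-sensitive potassium channel, from 142 to 94.0 CPM. The troponin Tnnt2, at 2979 and 2675 CPM, and alpha-actinin Actn2, at 2278 and 2003 CPM, were not called. Under the length covariate 3 of the 31 genes were called lower, and 7, 9 and 11 were without sham 1, 2 and 3.

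Genes of the Z-disc, the anchor of the sarcomere, and of titin and stretch sensing went both ways, with 4 of 29 higher, 3 lower and a median of 0.01. Besides Ankrd1, the actin-binding Xin proteins moved in opposite directions, with Xirp2 up from 821 ± 202 to 1630 ± 273 CPM and Xirp1 down from 628 to 386 CPM. Nrap, a protein of growing myofibrils, rose from 1567 ± 117 to 2245 ± 259 CPM, and Synpo2l rose from 243 to 389 CPM. The LIM protein Fhl2 fell from 383 ± 49.5 to 235 ± 26.3 CPM, which came to -0.70 in log2 units (SE 0.11, edgeR adjusted p = 2.6e-05) that passed in every alternative run. Pdlim3 fell from 22.3 to 13.3 CPM. All 7 called members were also called in mRNA of the same hearts. The length covariate left 1 higher and 2 lower.

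Of 21 collagen genes 13 were called higher and 0 lower, 20 had log2 fold changes above 0, and the median was 1.04. All 13 were also called in mRNA, where 17 of 21 were called and the median was 1.03. Collagens are long messages, with a median exon length of 6086 bases, and with the length covariate 2 of the 21, Col8a1 and Col6a2, were called and the median was 0.65. Without sham 1, 2 and 3 there were 14, 3 and 9 calls. Col8a1, a short-chain collagen made by activated fibroblasts and vessel cells, rose from 43.6 ± 6.83 to 162 ± 33.6 CPM, which came to 1.89 in log2 units (SE 0.31, edgeR adjusted p = 0.0009). Col6a2, a chain of microfibrillar collagen, rose from 114 ± 15.6 to 262 ± 47.5 CPM. Of the fibril-forming chains, Col1a1 was at 184, 120 and 176 CPM in sham and at 274 to 723 CPM in TAC, so its groups did not overlap (1.52 log2 units, SE 0.33, edgeR adjusted p = 0.0078). Col3a1 rose from a mean of 343 to 966 CPM and Col5a2 from 51.8 to 125 CPM. The basement membrane chains rose by less, Col4a1 from 512 to 869 CPM and Col4a2 from 392 to 659 CPM.

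Of 39 other genes of the matrix and its turnover, 18 rose and 2 fell, with a median log2 fold change of 0.52. Sparc, a collagen-binding matricellular protein, rose from 373 ± 24.7 CPM to 727 ± 92.3 CPM and was called under every alternative (0.96 log2 units, SE 0.13, edgeR adjusted p = 1e-05). Postn, the periostin of activated fibroblasts, rose from 39.5 ± 9.38 to 140 ± 38.3 CPM, but with the length covariate its log2 fold change was 1.27 at an adjusted p of 0.069. Cilp, a matrix protein of cartilage and stressed heart, had a large fold, from 3.05 to 6.61 CPM in sham to between 20.3 and 48.7 CPM in TAC, and Wisp2 rose from 1.55 to 9.52 CPM. Fibrillin Fbn1 rose from 171 to 483 CPM, nidogen Nid1 from 246 to 391 CPM and the cross-linking enzyme Loxl2 from 54.2 to 119 CPM. Timp4, an inhibitor of matrix proteases, fell from 6.99 to 1.95 CPM. Ctgf (Ccn2), a matricellular protein that TGF-beta induces, was the other gene that fell, from 495, 625 and 701 CPM to between 253 and 459 CPM (-0.83 log2 units, SE 0.23, edgeR adjusted p = 0.0264). With the length covariate it was -0.92 (SE 0.30) at an adjusted p of 0.147, and its call was also lost without sham 2 and without sham 3. Of the 39, the length covariate left 2 called higher and 0 lower, and without sham 1, 2 and 3 the higher calls were 12, 7 and 8. Of 28 genes of TGF-beta and activin signalling 3 rose and 0 fell, with a median of 0.04. That share is near the 11% of all tested genes called in either direction. The 3 were Ltbp2 and Ltbp4, which hold the latent growth factor in the matrix, and Fstl1. Fstl1, a secreted follistatin-like protein, rose from 198 ± 12.1 to 410 ± 61.2 CPM. These calls fell to 2 without sham 1, 0 without sham 2 and 1 without sham 3, and to 0 with the length covariate.

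Markers of the cells that lie between muscle cells were counted as well. Of 12 fibroblast markers 4 rose and 0 fell, with a median log2 fold change of 0.29, among them the transcription factor Meox1 from 14.0 to 23.9 CPM and Pi16 from 39.2 to 64.9 CPM. The summed level of the fibroblast list was 1760 to 1919 CPM in sham and 1910 to 2283 CPM in TAC, and none of its 12 genes was at 0 in a library. Without sham 1, 2 and 3 the calls were 1, 2 and 1, and 2 without each of TAC 3, TAC 4 and TAC 5. Of 16 endothelial markers 3 rose and 0 fell, with a median of 0.02, including the junction protein Cdh5 from 207 to 285 CPM, and the summed level was 1384 to 1556 CPM in sham and 1610 to 2090 CPM in TAC. Without sham 3 the endothelial calls fell to 0, and Cdh5 was not called without sham 2 or without sham 3. Of 12 markers of smooth muscle and pericytes 2 rose and 0 fell, Notch3 and Rgs5, with a median of 0.12 and a summed level of 1017 to 1172 CPM in sham and 1201 to 1639 CPM in TAC. Rgs5 lost its call without sham 1, sham 3, TAC 2, TAC 3, TAC 4 and TAC 6, each left out alone. Of 22 macrophage and monocyte markers 4 rose and 1 fell, with a median of 0.53 and 19 above 0. Cx3cr1, the fractalkine receptor, rose from 7.47 ± 2.32 to 20.6 ± 4.73 CPM, which came to 1.48 in log2 units (SE 0.27, edgeR adjusted p = 0.00042). The lysosomal pore protein Mpeg1 rose from 25.9 to 50.3 CPM and the growth factor receptor Csf1r from 52.6 to 84.0 CPM. Lyve1, which marks resident macrophages and lymph vessels, fell from 31.1 to 14.9 CPM. The summed macrophage level was 316 to 383 CPM in sham and 416 to 659 CPM in TAC, and 3 of the 22 markers were at 0 in some library. No summed level of these cell types carries the TMM factor, which was lower in every sham library than in every TAC library. With it the sham sums would rise relative to the TAC sums, and whether the groups then stay apart was not tested. The length covariate left 1 macrophage marker higher and 1 lower, and 0 fibroblast, 0 endothelial and 0 smooth muscle markers. The part of these cells in the rise of matrix genes was not tested.

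Markers of fat and blood cells were followed too. None of 11 adipocyte markers was above 0, 3 fell, and the median log2 fold change was -1.27. Each single library left out, sham or TAC, lowered the calls to between 0 and 2, with 0 without sham 3, and the median ranged from -1.53 to -0.69. With the length covariate 0 were called and the median was -0.07. Cfd, the adipocyte protease adipsin, ranged from 12.4 to 62.5 CPM in sham and from 4.08 to 11.0 CPM in TAC. The summed adipocyte level was 68.8 to 155 CPM in sham and 26.9 to 65.6 CPM in TAC. In TG hearts the median of the same list was 1.51 and 0 members were called. The summed level there was 163 and 176 CPM in TG TAC 3 and TG TAC 7. It was 27.3 to 47.2 CPM in the other TG TAC libraries, below the 50.1 to 60.4 CPM of TG sham. The part of fat in the section in the ntg results was not tested beyond the counts with an adipocyte covariate. Of the erythroid markers 2 were tested and 1, Slc4a1, was called higher, a call lost with the length covariate and without each of sham 1, sham 2, TAC 1 and TAC 6, and 4 of the 7 in the files were at 0 in all libraries of both groups. Of 12 lymphocyte markers 1 had enough counts to be tested and it was not called.

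Of 33 genes of fatty acid uptake and oxidation 14 fell and 0 rose, with a median log2 fold change of -0.36. Of the 14, 12 were also called in mRNA. Lpl, the lipoprotein lipase that frees fatty acids for the muscle, was at 3906, 2808 and 2797 CPM in sham and at 1534 to 2095 CPM in TAC, which came to -0.83 in log2 units (SE 0.15, edgeR adjusted p = 0.00091). Slc27a1, a fatty acid transporter, fell from 175 ± 27.0 to 106 ± 16.6 CPM. Along the pathway the carnitine enzyme Cpt2 fell from 221 to 154 CPM, the trifunctional protein subunit Hadha from 1405 to 1035 CPM, the dehydrogenase Acadvl from 599 to 457 CPM, and the electron carrier subunit Etfb from 135 to 91.6 CPM. Pdk4, the kinase that shuts pyruvate out of the mitochondrion, fell from 625 ± 421 to 208 ± 58.4 CPM, with a wide spread in sham from 341 to 1109 CPM. With the length covariate 0 of the 33 were called and the median was -0.22. Without sham 1, 2 and 3 there were 6, 5 and 8, without TAC 5 there were 8, and without the pair of TAC libraries of lowest depth there were 7. With the adipocyte level of each library as a covariate 9 were called.

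The regulator Ppargc1a (chromosome 5, 51454249 to 51553921, minus strand), the coactivator PGC-1 alpha that drives mitochondrial genes, had the smallest p-value of the lists. It was at 626, 501 and 650 CPM in sham and at 119 to 174 CPM in TAC, with a median of 154 CPM, so the lowest sham library stood above the highest TAC library by more than the whole range of either group. In log2 units the fall was -1.97 (SE 0.12, edgeR adjusted p = 2.2e-14), with -2.12 in mRNA and -1.65 in TG RISC libraries, and -1.87 with the length covariate. Of 18 genes of mitochondrial biogenesis and nuclear receptors 3 fell and 0 rose. The others were its partners Esrra, from 60.8 to 44.8 CPM, and Ppara, from 232 to 183 CPM. The length covariate left the call of Ppargc1a alone, and without sham 2 or TAC 6 it was also the only call of the list in that direction.

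All 17 genes of the tricarboxylic acid cycle were below 0, 9 were called lower, and the median log2 fold change was -0.30. Idh3b, a subunit of isocitrate dehydrogenase, fell from 284 ± 41.3 to 205 ± 18.8 CPM. Mdh1, the cytosolic malate dehydrogenase, was at 780, 867 and 849 CPM in sham and at 589 to 702 CPM in TAC, without overlap, and Fh1, fumarase, fell from 177 to 133 CPM. Of the 9 genes 6 were also called in mRNA. With the length covariate 0 were called, although Mdh1 stood at -0.38 against -0.37 without it and Idh3b at -0.40 against -0.47. Without sham 1, 2 and 3 there were 7, 5 and 4 calls. Of 26 genes of glycolysis and glycogen 5 fell and 0 rose, with a median of -0.02. They were the insulin-responsive glucose transporter Slc2a4, from 457 to 299 CPM, the enzymes Pgam1, from 288 to 186 CPM, and Eno3, from 621 to 421 CPM, hexokinase Hk2 and glycogen synthase Gys1. Under the length covariate 0 were called and the median was -0.09, and without sham 3 the list had 3 lower and 1 higher.

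The respiratory chain held the highest share of calls of any list. Of 74 genes of its complexes and the ATP synthase 52 fell and 0 rose, all 74 were below 0, and the median log2 fold change was -0.50. These are short messages, with a median exon length of 669 bases. With the length covariate 1 of the 74 was called and the median was -0.21. Without sham 1, 2 and 3 there were 41, 25 and 45 calls, and with the adipocyte covariate 32. Of the 52 genes 14 were also called in mRNA and 50 had the same sign there. The median of the list in mRNA was -0.28. A test of the difference between the changes in RISC libraries and mRNA called 0 of the 74. In TG RISC libraries 3 rose and 6 fell, with a median of -0.05. Cox7a1, the heart and muscle form of a cytochrome c oxidase subunit, was at 168, 240 and 174 CPM in sham and at 85.7 to 121 CPM in TAC (-1.0 log2 units, SE 0.16, edgeR adjusted p = 0.0003). The length covariate gave -0.49 at an adjusted p of 0.055. Sdhb, the iron-sulfur subunit of complex II and a link to the tricarboxylic acid cycle, was at 289, 332 and 328 CPM in sham and at 162 to 246 CPM in TAC. Atp5b, the catalytic subunit of the ATP synthase, fell from 2020 ± 101 to 1647 ± 104 CPM. The groups did not overlap for either.

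**Figure D3:**
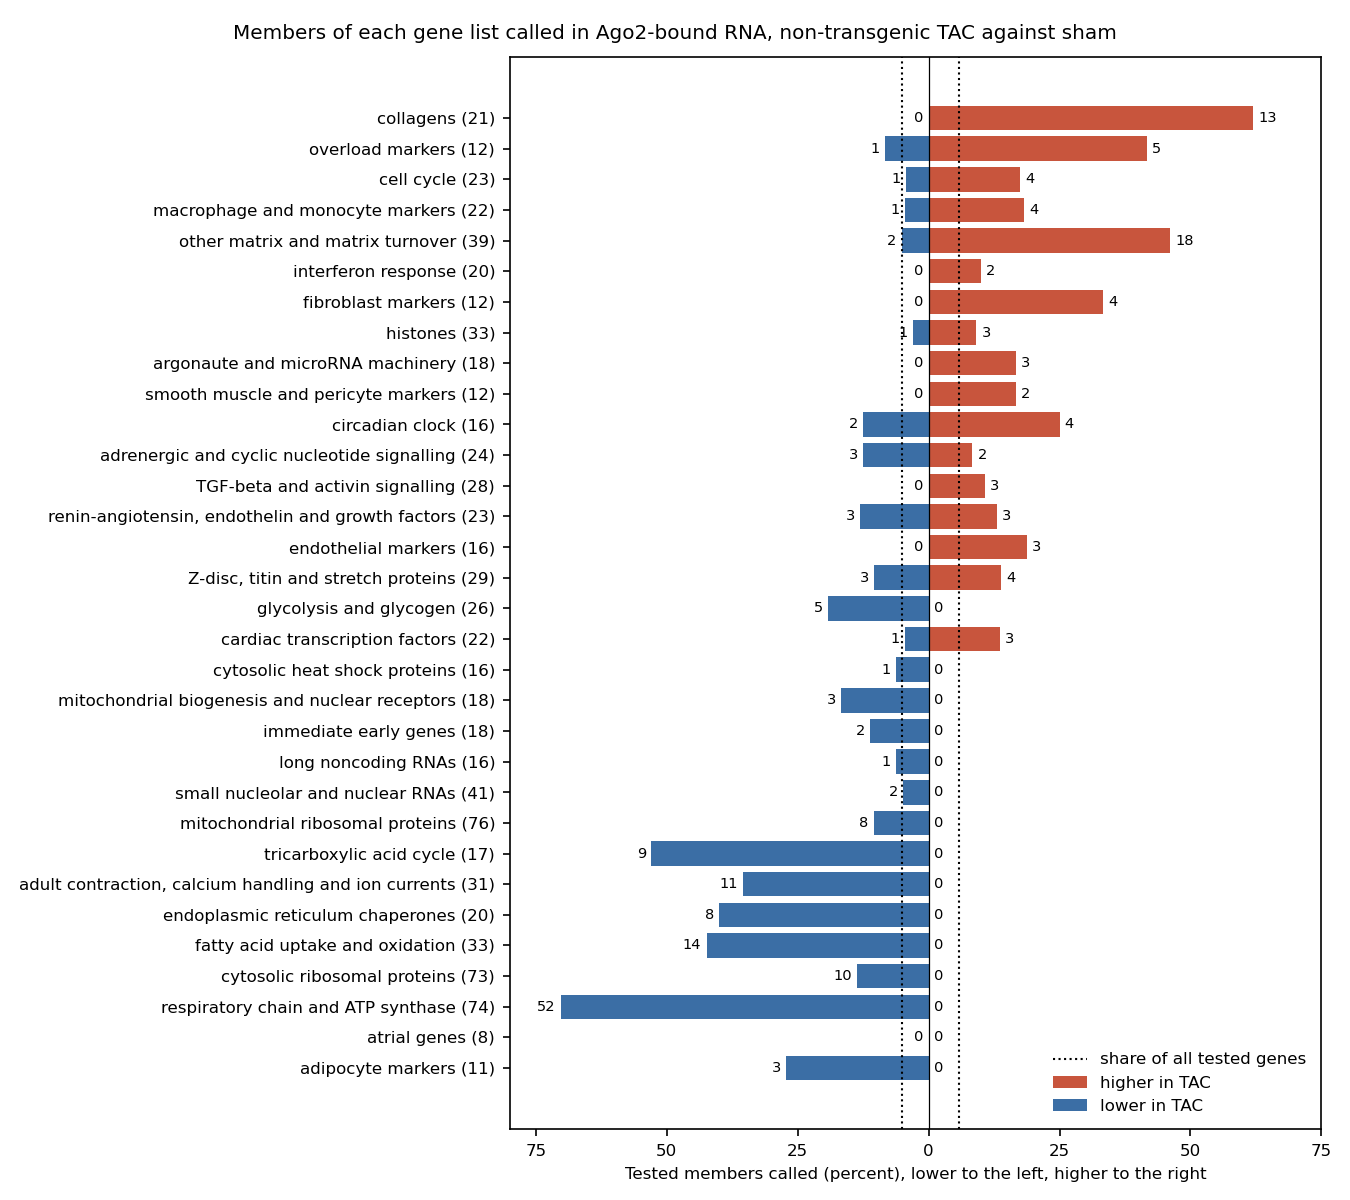
Share of the tested members of each gene list (number tested in brackets) that were called lower, to the left, or higher, to the right, in non-transgenic TAC against sham RISC libraries, in percent. Dotted lines show the share of all tested genes, 5.11% lower and 5.84% higher, and the respiratory chain, with 52 of 74 lower, and the collagens, with 13 of 21 higher, lie farthest from them.

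Other lists of mostly short messages were compared. Of 73 cytosolic ribosomal proteins 10 fell and 0 rose, with a median log2 fold change of -0.43 in ntg and of 0.17 in TG hearts. Rpl27a fell from 86.0 ± 24.1 to 48.0 ± 5.42 CPM and Rpl37 from 27.6 to 16.3 CPM. Of 76 mitochondrial ribosomal proteins 8 fell, with a median of -0.28, among them Mrps14 from 14.9 to 9.48 CPM. That share is near the 11% of all tested genes called in either direction. Leaving out 1 library gave 2 to 14 calls for the cytosolic list, with 2 without sham 2, and 2 to 12 for the mitochondrial list, with 2 without sham 2, 5 without sham 3 and 12 without TAC 7. No member of either ribosomal list was called under the length covariate. Reads that map to several places were not counted, so levels within these families and the histones, which have near-identical copies, are uncertain. Of 33 histone genes 3 rose and 1 fell, a share near the 11% of all tested genes called in either direction. The linker histone H1f0 rose from 82.4 to 129 CPM and the variant H2afv fell from 23.4 to 16.6 CPM. Under the length covariate 0 histones were called, and without each sham library 1 was called higher. Of 41 small nucleolar and nuclear RNAs 2 fell, Scarna6 and Scarna13, guides of modification in Cajal bodies, a share like that of all genes. Both calls were lost with the length covariate, which moved the list median from -0.27 to 0.65, and without sham 1. Of 5 microRNA precursor genes with enough counts 0 were called. Of 16 long noncoding RNAs Gas5, a host of small nucleolar RNAs, was the 1 called, from 15.8 to 9.15 CPM. That share is below the 11% of all tested genes called in either direction. The call of Gas5 was lost with the length covariate and without each of sham 1, sham 3, TAC 1, TAC 2, TAC 3, TAC 4 and TAC 6.

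Of 20 chaperone and stress genes of the endoplasmic reticulum 8 fell and 0 rose, with a median log2 fold change of -0.36. Hspa5, the master chaperone BiP, was at 252 ± 66.7 CPM in sham and 136 ± 20.4 CPM in TAC, which came to -0.88 in log2 units (SE 0.12, edgeR adjusted p = 1.4e-05). Herpud1, a membrane protein of the degradation pathway, fell from 264 to 165 CPM, the calcium-binding lectin chaperones Calr from 196 to 127 CPM and Canx from 412 to 294 CPM, and the transcription factor Atf4 from 63.0 to 46.3 CPM. Under the length covariate 3 of 20 were called, 4 were without sham 1, and Hspa5 and Herpud1 were called under every alternative. Of 16 cytosolic heat shock genes 1 fell, a share below the 11% of all tested genes called in either direction. It was the constitutive chaperone Hspa8, from 802 to 571 CPM. This call was kept on leaving out sham 3 or TAC 4 and lost on leaving out any other single library or with the length covariate. Of 18 immediate early genes 2 fell and 0 rose, a share near that 11%. They were Klf4, from 116 ± 2.42 to 65.6 ± 16.2 CPM, and Fosb, from 5.03 to 1.5 CPM. Klf4 kept its call under the length covariate and Fosb lost it, as it did without sham 2 and without sham 3.

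Of 23 genes of the renin-angiotensin system, endothelin and growth factors 3 rose and 3 fell. The length covariate left Ace higher and Agt lower, and the higher calls numbered 1, 2 and 1 without sham 1, 2 and 3 and the lower ones 2, 3 and 2. Agt (chromosome 8, 124556587 to 124569707, minus strand), the angiotensinogen from which angiotensin is cut, was at 21.9, 8.17 and 15.1 CPM in sham and at 0.149 to 2.25 CPM in TAC, with a median of 1.45 CPM. Every TAC library lay below the lowest sham library, and the log2 fold change was -3.39 (SE 0.36, edgeR adjusted p = 7.4e-08). Ace, the enzyme that makes angiotensin II, rose from 101 ± 12.5 to 227 ± 44.4 CPM, which came to 1.17 in log2 units (SE 0.21, edgeR adjusted p = 0.0016). Both were called under every alternative. Igf1 rose from 37.5 to 59.3 CPM and the cytokine receptor Il6st from 531 to 676 CPM, while the endothelin receptor Ednra fell from 189 to 135 CPM and the vessel growth factor Vegfa from 321 to 238 CPM. Of 24 genes of adrenergic and cyclic nucleotide signalling 2 rose and 3 fell. The receptor Adra1b fell from 44.8 to 27.5 CPM and the adenylyl cyclase Adcy5 from 166 to 121 CPM, and Prkar1a, a regulatory subunit of protein kinase A, rose from 1443 ± 207 to 1889 ± 186 CPM. Of the 24 genes 0 were called with the length covariate. Without sham 1 there were 0 higher and 1 lower, and 1 higher and 2 lower without each of sham 2, sham 3, TAC 1 and TAC 6.

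Genes of the circadian clock changed in both directions, with 4 of 16 higher and 2 lower. Nfil3, a repressor of genes with D-box elements, fell from 18.8 ± 3.17 to 6.02 ± 1.61 CPM (-1.61 log2 units, SE 0.22, edgeR adjusted p = 5.2e-06), and Cry1 fell from 25.4 to 14.8 CPM. The D-box activators Dbp, from 22.1 to 54.4 CPM, and Tef, from 172 to 259 CPM, rose, as did Per3, from 85.4 to 140 CPM, and the repressor Nr1d1, from 95.5 to 200 CPM. Arntl, the core activator, had a log2 fold change of -1.31 at an adjusted p of 0.098 and was not called. Under the length covariate 1 of the 16, Nfil3, was called, and without sham 1, 2 and 3 the higher calls were 2, 2 and 3. The labels used here give no time of day for the collection of hearts, so its part in these values was not tested. Of 22 cardiac transcription factors 3 rose and 1 fell, with Mef2c up from 136 ± 11.6 to 199 ± 15.9 CPM and Hopx, a homeodomain protein, down from 104 to 68.2 CPM. None of these was called under the length covariate, and without sham 1 there was 1 in each direction. Of 23 cell cycle genes 22 were above 0, 4 rose and 1 fell, with the cyclins Ccnd2 from 535 to 766 CPM and Ccnd1 from 58.9 to 94.8 CPM, and the median log2 fold change was 0.54. Without sham 1 the higher calls fell to 0, so Ccnd1 and Ccnd2 were not called, and without sham 2 there were 2. With the length covariate 0 were called and the median was 0.34. Of 20 interferon response genes 2 rose, a share near the 11% of all tested genes called in either direction. They were Ifit2, from 23.6 to 45.3 CPM, and Ifi44, from 0.734 to 2.71 CPM, each with TAC 5 far above the other TAC libraries. Ifi44 was not called without TAC 5, without any 1 of the sham libraries or with the length covariate, and Ifit2 lost its call only with the length covariate.

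The genes of the precipitated complex itself were also counted. Eif2c2, the gene of Ago2 (chromosome 15, 73101625 to 73184947, minus strand), was at 280, 408 and 389 CPM in sham and at 386 to 481 CPM in TAC, with overlapping groups and a log2 fold change of 0.31 (SE 0.11, edgeR adjusted p = 0.077). Of 18 genes of the Argonaute and microRNA machinery 3 rose and 0 fell, and 15 were above 0. Eif2c1, the gene of Ago1, rose from 91.4 ± 9.23 to 145 ± 17.4 CPM, its scaffold Tnrc6b from 723 to 916 CPM and the helicase Mov10 from 23.2 to 33.6 CPM. None of the 3 was called with the length covariate, and without sham 1, 2 and 3 the calls were 2, 2 and 1.

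Ranked by fold among called genes whose mean level reached 1 CPM, the 8 highest were Col26a1, Bub1b, Frem1, Wisp2, AI593442, Cilp, Col9a2 and C7. Col26a1 and Col9a2 are collagens of low level, at 1.44 and 1.67 CPM in TAC. Col26a1 lost its call in 6 of 21 alternatives and Col9a2 in 12 of 21, both when any 1 sham library was left out. Frem1 lost its call in 3 of 22 and Wisp2 in 4 of 23, while Bub1b, AI593442, Cilp and C7 kept theirs in all. Bub1b, a kinase of the mitotic checkpoint, rose from 0.274 ± 0.0905 to 3.05 ± 0.557 CPM, and every TAC library was above 2 CPM. C7, a component of the terminal complement complex, rose from 6.20 ± 1.30 to 29.0 ± 9.10 CPM, which came to 2.23 in log2 units (SE 0.22, edgeR adjusted p = 1.6e-08). Among the lowest were Agt, Nr4a3, Cfd, Olfr1033 and Cacna2d3. Cfd lost its call in 13 of 23 alternatives and Cacna2d3 in 11 of 21, while Agt, Nr4a3 and Olfr1033 kept theirs in all. The groups overlapped for Cacna2d3, with 2.79 CPM in TAC 5 and 0.773 CPM in sham 3. Nr4a3, an orphan nuclear receptor, fell from 48.8 ± 8.81 to 7.58 ± 2.30 CPM, and Olfr1033, named as an odorant receptor, from 86.5 ± 22.7 to 20.6 ± 4.27 CPM, both without overlap. Cfd is a product of fat cells. With reads of either strand counted together, overlapping genes cannot be told apart from these.

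Few genes passed a test of whether the overload change in Ago2-bound RNA differed from that in mRNA of the same hearts. Of the 1416 genes called, 632 were also called in mRNA in the same direction and 0 in the opposite one. In mRNA 663 genes (4.82%) were higher and 660 (4.8%) lower, 9.62% of the 13758 tested there. The difference between the changes was called for 1 higher and 1 lower gene of 13758, 0.00727% each or 0.0145% together, and 1246 passed an unadjusted p below 0.05 (edgeR's quasi-likelihood test). DESeq2 called 9 and 9. Fbxl20, an F-box protein of a ubiquitin ligase, rose from 141 ± 18.3 to 238 ± 16.8 CPM in RISC libraries, with a log2 fold change of 0.05 in mRNA and a difference of 0.65 (SE 0.13, edgeR adjusted p = 0.0303). With each heart as a replicate block the adjusted p was 0.0523. Htra1, a secreted serine protease, fell from 74.0 ± 17.4 to 38.2 ± 5.61 CPM, with -0.22 in mRNA and a difference of -0.79 (SE 0.14, edgeR adjusted p = 0.018), and an adjusted p of 0.0316 with the heart as a block. In a fit of the 20 non-transgenic libraries alone 0 genes were called in either direction.

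**Figure D4:**
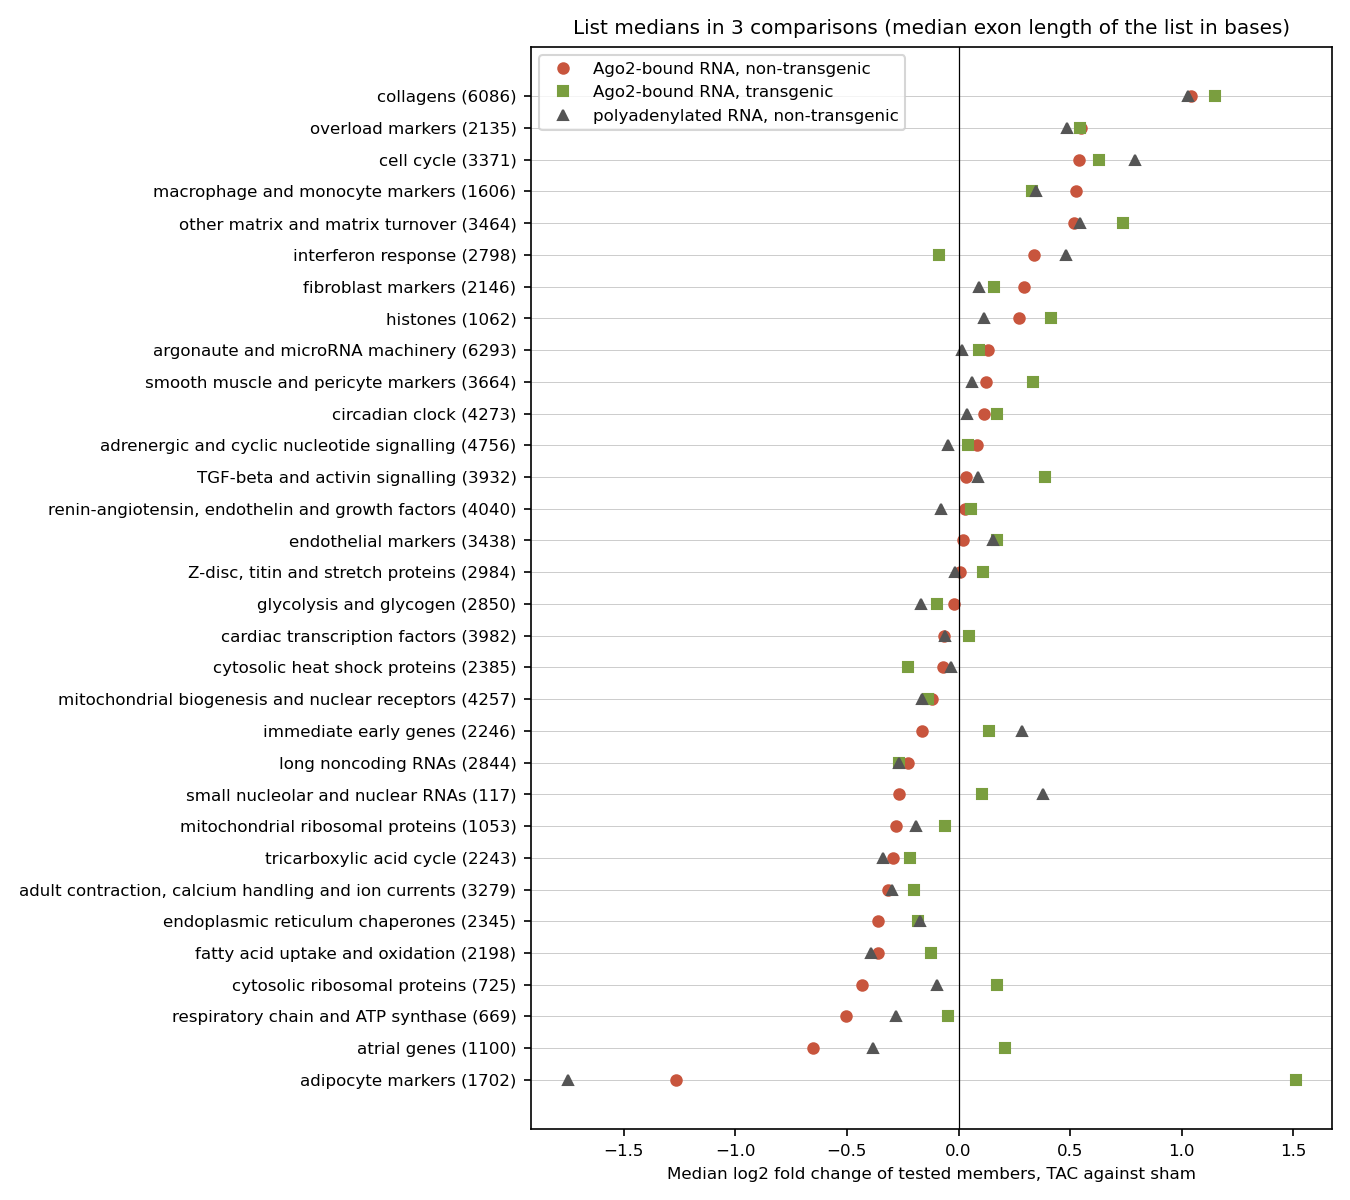
Median log2 fold change of the tested members of each gene list, TAC against sham, in non-transgenic RISC, transgenic RISC and non-transgenic mRNA libraries, with the median exon length of the list in bases in brackets. The respiratory chain lies at -0.50, -0.05 and -0.28, the collagens at 1.04, 1.15 and 1.03, and the adipocyte markers at -1.27, 1.51 and -1.75. Of the transgenic TAC RISC libraries, only replicates 3 and 7 had summed adipocyte levels above those of transgenic sham.

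Against TG hearts, the overload change of Ago2-bound RNA differed for 3 genes in the higher and 40 in the lower direction, 0.0232% and 0.31% of 12923 or 0.333% together (quasi-likelihood test of edgeR on the difference itself, Benjamini-Hochberg method). In TG hearts alone 587 genes (4.54%) were higher and 516 (3.99%) lower, 8.54%. Of the 755 genes higher in ntg 257 were also called higher in TG, which is 34% of the ntg list and 43.8% of the TG list, and 185 were lower in both, 28% and 35.9%. Opposite calls were made for 14. Of the 40 genes with a lower change in ntg, 30 were called lower in ntg and 24 higher in TG. The 40 were chosen by that difference, so these calls follow in part from the choice. Of the same genes 30 were shorter than the median tested gene, which divides all tested genes evenly. The respiratory chain has 7 of the 40 and 74 of all 12923 tested genes. In the direction of a lower change in ntg 9 genes were called under the length covariate and 18 under the adipocyte covariate. Tnni3 fell by 0.79 in ntg and had a log2 fold change of 0.00 in TG hearts, with a difference of -0.79 at an adjusted p of 0.02 (edgeR). Cox17, a copper chaperone of cytochrome c oxidase, was at -0.97 in ntg and 0.58 in TG (edgeR adjusted p = 0.00012), and the lipid droplet protein Plin4 at -1.0 and 0.16 (edgeR adjusted p = 0.00013). These last 2 genes were chosen after their values were seen. The 3 genes with a higher change in ntg were Mtx3, a mitochondrial import protein, Rasgrp3, an activator of Ras, and Bcl6b, a transcriptional repressor. Mtx3 was not called in ntg, at 0.10 in log2 units, and fell in TG hearts, at -0.76 (edgeR adjusted p = 0.00014). Rasgrp3 was at 0.62 in ntg and at -0.20 in TG hearts, where it was not called. Bcl6b rose from 30.9 ± 2.97 to 69.0 ± 6.35 CPM, which came to 1.16 in log2 units (SE 0.12, edgeR adjusted p = 6.5e-08) against 0.43 in TG hearts.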

How the data were processed

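The authors deposited raw counts of reads per gene, a file per library, made per the submitters' processing notes with Bowtie2, TopHat2 2.0.10 and HTSeq on mm10. Reads were single-end and not strand-specific, so overlapping and antisense genes cannot be told apart. The 5 HTSeq summary rows and Rn45s were dropped before scaling, and genes on autosomes by the deposited gene models were kept. Counts were filtered with filterByExpr, scaled by TMM and tested with edgeR 4.0.16 (glmQLFit, robust; R 4.3.3) in 1 fit of all 20 RISC libraries, or of all 40 for RISC less mRNA, with Benjamini-Hochberg adjustment over all tested genes and calls at an adjusted p below 0.05. SE is the log2 fold change over the square root of F. Alternatives used DESeq2 1.42.0, other scaling, filters and covariates. The length slope used genes whose mean level reached 5 CPM, with 0.5 CPM added.

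Samples were grouped by the labels. File names carry a code per animal, so replicates were taken as separate animals. RISC and mRNA libraries of a heart share that code, and their deviations from the group means over 9322 genes correlated at a median of 0.152, above 0.1 in 8 of 10 hearts. No libraries were duplicates. In simulated counts the ntg comparison recovered 71% of 200 genes changed 2-fold and 34.5% of those changed 1.5-fold. No length slope difference between sham and TAC was put into those counts.

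The 35 gene lists and the groups compared were chosen with earlier results of these data known, so their direction is not independent evidence. Genes named are the Ago2 gene, the 8 called genes of largest fold in each direction whose mean reached 1 CPM, the best 2 called genes per list by adjusted p, 10 overload and matrix genes, and those with the largest differences from mRNA and TG. Other genes named were chosen after their values were seen. Some genes that the rule selects are not reported here. Promoters are from RefSeq, GRCm38.p6, where 67 of 90 named genes had a window.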

Additional observations from a re-analysis of the deposited data

Results flagged for a closer look

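In the TAC group 10 of 94 sets of 7 levels had 1 library far from the rest by Dixon's criterion. For independent sets of normally distributed levels chance gives about 1 in 20. These sets share the same 7 libraries and are on a linear scale, so that rate is only a rough guide here. TAC 5 was highest for C7 (47.2 CPM, next 30.5), Cacna2d3 (2.79, next 0.752), Ifit2 (64.0, next 47.6), Ifi44 (7.11, next 2.80) and Ace (320, next 240). TAC 4 was highest for Hspa8 (785 CPM, next 584), TAC 3 for Hspa5 (177, next 144), and TAC 7 for Slc27a1 (140, next 109) and Mrpl14 (10.3, next 7.93). Xist was highest in TAC 2, at 19.5 CPM of counts without Rn45s (next 5.45).

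The overload change differed between ntg and TG hearts by edgeR's quasi-likelihood test of the difference. On the log2 scale, ntg less TG, the difference was -0.79 for Tnni3, -1.19 for Rpl27a, -0.81 for Herpud1, -0.90 for Klf4, -2.44 for 9130019P16Rik, -1.86 for Rplp2 and -1.86 for Ndufc1. It was 0.86 for Mtx3, 0.82 for Rasgrp3 and 0.72 for Bcl6b.

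Genes of chromosome Y were outside the tests. The 4 Y-linked genes summed to a mean of 124 CPM in the TAC libraries, above every sham library, and surgery and sex-chromosome RNA cannot be told apart.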

How the results depend on the processing

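Of the 85 named genes called, 25 were called under every alternative and 0 changed sign. With the length slope as a covariate 60 lost their call, and 23, 26 and 18 without sham 1, 2 and 3. For TAC against sham, the length covariate gave 111 higher and 116 lower genes, and leaving out 1 library gave 319 to 769 higher and 380 to 724 lower. Sham and TAC libraries share only a number: deviations of equal numbers correlated at -0.007, 0.045 and -0.152, and the replicate block gave 438 and 371.

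For RISC less mRNA, a mean of at least 5 CPM gave 3 higher genes. The 20 non-transgenic libraries alone gave 0 and 0, the heart as replicate block 0 and 3, the length covariate 0 and 0, and DESeq2 9 and 9. Leaving out 1 heart, with its libraries of both kinds, gave 0 to 1 higher and 0 to 2 lower. For ntg less TG, DESeq2 gave 12 higher and 111 lower, the length covariate 0 and 9, the adipocyte covariate 18 lower, and leaving out 1 library 0 to 5 higher and 14 to 51 lower. The cause of these shifts was not tested.

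The shallowest TAC library held 3.49 M counts. In simulated counts with these group sizes 34.5% of genes changed 1.5-fold were recovered and 71% of those changed 2-fold, over all levels together. Those counts had 200 changed genes and no length slope difference between sham and TAC. The shares may therefore not hold for the real libraries.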
